A study of Mus musculus with 6 samples.

Results

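The insulin-like growth factor (IGF) genes Igfbp2, Igfbp3, Igfbp4, Igfbp5, Igf1 and Igf1r were followed in mouse embryonic stem (ES) cells differentiating as embryoid bodies, with and without induced miR-200c and miR-141. The 6 genes were taken by symbol from the 18193 genes that the arrays measured through a probe set of a single gene symbol. They were represented by 20 probe sets, and each gene is described by its probe set of highest mean intensity, with the others as a check. They were chosen by family name with their intensity differences between induced and untreated arrays already known, so those differences are given as descriptions without a test. Changes between days were not used for the choice and were tested. They come from the same arrays, however, and earlier results of these data were known.

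The cells were A2.miR200c, an A2lox-derived ES cell line with a doxycycline-inducible cassette for miR-200c and miR-141. They had been kept on irradiated embryonic fibroblast feeders, were passaged once without feeders, and were then grown in suspension in Petri dishes. Induced cultures received 500 ng/mL doxycycline on day 2 and again on day 4, and untreated cultures received none. The induced day 3 array thus came before the second dose and the induced day 5 array after it. Each treatment had 3 arrays, 1 on each of days 3, 4 and 5, which leaves a single day without an error, and each SD below was taken over the 3 daily differences. Every sample carried the cassette, and the arrays hold no doxycycline-treated line without it, so an effect of the drug and one of the microRNAs cannot be told apart.

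IGF ligands signal through the type 1 IGF receptor, a tyrosine kinase that drives growth and survival through the insulin receptor substrates, PI3 kinase and AKT. The secreted IGF binding proteins hold the ligands in the extracellular space, where they can keep them from the receptor or carry them, and proteases that cut the binding proteins release the ligand. In the early mouse embryo Igf2 is the abundant ligand, while Igf1 becomes important mainly for later growth.

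The induced microRNAs carry the following mature sequences, from RefSeq on GRCm38.p6, shown because they are what the cassette encodes. The seed, bases 2 to 8 counted from 1 at the 5′ end, is in capitals. The first lies at chr6:124718324-124718346 and the second at chr6:124717917-124717938, both on the minus strand.
mmu-miR-200c-3p: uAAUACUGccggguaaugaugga
mmu-miR-141-3p: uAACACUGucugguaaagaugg
The seeds differ by U4C, with the base of miR-200c given first, so the pair does not share a seed.

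Among the 6 genes, Igfbp3 and Igfbp4 stood apart under induction, in opposite directions. In this and later paragraphs differences and folds are on the log2(intensity + 50) scale, which damps low values. Igfbp3 was 6.13-fold higher on the induced array of day 5, and Igfbp4 was 3.07-fold lower on day 4 and 2.24-fold lower on day 5. On day 3 none of the 6 genes was 2-fold apart, against 0.02% of the 9997 genes tested. On day 4 1 member was at least 2-fold lower, where 0.5% of all genes were. On day 5 1 member was at least 2-fold higher and 1 lower, where 1.97% and 1.52% of all genes were. Because the genes were chosen with these differences known, nothing is read from those counts.

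**Figure D1:**
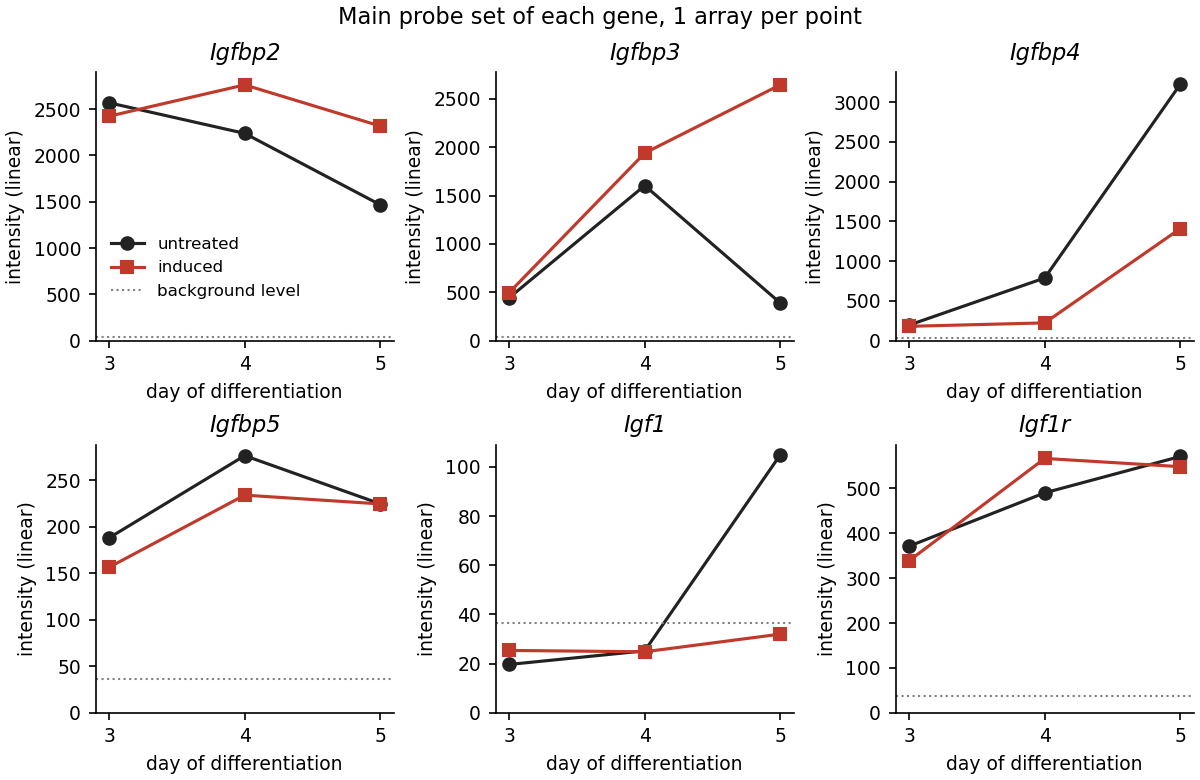
Linear intensity of the main probe set of each of the 6 genes against day of differentiation, with 1 array per point, untreated in black circles and induced in red squares. The dotted line is the background level of 36.7. Igfbp3 reached 2644 on the induced and 389 on the untreated array of day 5, while Igfbp4 reached 3222 untreated and 1408 induced. Vertical scales differ between panels because probe sets cannot be compared in level.

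Igfbp3 encodes the binding protein that carries most circulating IGF in adult blood. Its intensity in untreated cultures was 443 on day 3, 1603 on day 4 and 389 on day 5. In induced cultures it was 497, 1939 and 2644 on the same days. Both treatments were thus high on day 4, and on day 5 the untreated array was back near its day 3 value while the induced array was the highest of the 6. Induced minus untreated was 0.15 on day 3, 0.27 on day 4 and 2.62 on day 5, with a mean of 1.01 ± 1.39 (SD, n = 3 days). Of all genes tested, only Hprt had a day 5 difference as high or higher.

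The other Igfbp3 probe set gave differences of 0.31, 0.26 and 2.48. From day 3 to day 5 Igfbp3 moved by -0.17 in untreated and by 2.30 in induced cultures. This divergence between treatments was not tested for the single gene. Averaged over treatments, the day 5 minus day 3 difference was 1.07 (SE 0.62, limma adjusted p = 0.227). Without the untreated day 5 array it was 2.27 and without the induced day 5 array it was -0.14. In each case day 5 is then 1 array, assumed to vary like the others, and in the first it is the array whose high value was known when the gene was chosen, so no p is given. The day 3 to day 5 average therefore described neither treatment.

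On day 5, ES cell and epiblast markers shared the sign of the induced minus untreated difference with Igfbp3. The intensities of the 8 listed markers, all above background on every array, summed to 20427, 16527 and 3833 in untreated cultures and to 19464, 18396 and 11876 in induced cultures. All 8 were higher on the induced than on the untreated array of day 5, Esrrb only at 46.1 against 38.6, near background. Over days they did not follow Igfbp3. Their sum fell from day 3 to day 4 in both treatments, and from day 4 to day 5 in induced cultures, while Igfbp3 rose. Fgf5, a growth factor of the primitive ectoderm, measured 1265, 2746 and 499 untreated and 1236, 2833 and 2715 induced, high on day 4 in both treatments and on day 5 only when induced. It was named with its values known, and other markers of the list did not rise to day 4, such as Sox2 (5581 to 2928 untreated) and Utf1 (2357 to 531 untreated). The part of cell composition in the Igfbp3 difference was not tested, and in RNA from whole embryoid bodies fewer cells of a type and less RNA per cell cannot be told apart.

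Igfbp4 encodes a binding protein known mainly for restraining IGF action until the protease Pappa cuts it. Its intensity in untreated cultures was 196 on day 3, 787 on day 4 and 3222 on day 5. In induced cultures it was 179, 222 and 1408. The rise had begun by day 4 in untreated cultures, whereas in induced cultures the day 4 value was close to that of day 3 and most of the rise fell between days 4 and 5. Induced minus untreated was -0.10 on day 3, -1.62 on day 4 and -1.17 on day 5, with a mean of -0.96 ± 0.78 (SD, n = 3 days). On day 4, 9 of the 9997 genes, Igfbp4 included, were as low or lower, and on day 5 112 were.

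All 6 Igfbp4 probe sets were lower on the induced arrays of days 4 and 5, by -0.24 to -1.62 on day 4 and by -0.59 to -1.48 on day 5. The smallest differences came from the dimmest probe set, which was at or below background on 4 of the 6 arrays. On day 3 the 6 probe sets lay between -0.10 and 0.17.

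From day 3 to day 5 Igfbp4 rose in both treatments, by 3.74 in untreated and 2.67 in induced cultures. Averaged over treatments it rose by 3.20 (SE 0.36, limma adjusted p = 0.0042), a 9.20-fold rise. The other 5 probe sets passed the same test, with rises of 0.94 to 3.14 and adjusted p between 0.0037 and 0.0144. Without each single array in turn the rise of Igfbp4 was 2.55 to 3.85.

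Markers of mesoderm rose over the same days. The 8 listed mesoderm markers summed to 1126, 9949 and 10814 in untreated cultures and to 800, 5455 and 10181 in induced cultures, sums carried mainly by Mixl1, Eomes and Kdr. On day 5 the members went in opposite directions, with induced minus untreated differences of 0.96 for Mixl1 and 0.64 for Eomes but of -2.75 for Foxf1, -1.70 for Hand1, -0.88 for Pdgfra and -0.82 for Kdr. The median over the 7 tested was -0.71 on day 4 and -0.82 on day 5. On each array 0 to 3 of the 8 were at or below background, and none was so on all arrays. Pdgfra, a receptor of early mesoderm, measured 40.3, 591 and 1330 untreated and 37.8, 199 and 698 induced. The intensities of 9 fibroblast and mesenchyme markers summed to 319, 369 and 1145 untreated and to 314, 343 and 437 induced. On each array 4 to 7 of these 9 were at or below background, Lum on all 6. Col1a1, the main collagen chain of fibroblasts, was at 577 on the untreated and 89.7 on the induced array of day 5 and below background on days 3 and 4. The 9 extraembryonic endoderm markers summed to 1271, 2992 and 5309 untreated and to 1056, 1981 and 5742 induced, with 1 or 2 of them at or below background on each array and Afp on all 6. The day 5 sums were carried mainly by Sox17 (2914 untreated, 3875 induced), which the paper lists among epiblast markers, and Gata6 (816 and 893). Induced minus untreated on day 5 was below 0 for 3 of the 7 tested, Sox7 (-1.90), Gata4 (-0.62) and Dab2 (-0.20). It was above 0 for the other 4, and 1 of the 7, Sox7, was 2-fold apart. In untreated cultures Cubn (465 to 224) and Amn (127 to 71.2) fell from day 3 to day 5, while Gata4 and Sox7 rose. The part of these cell types in the Igfbp4 difference was not tested.

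**Figure D2:**
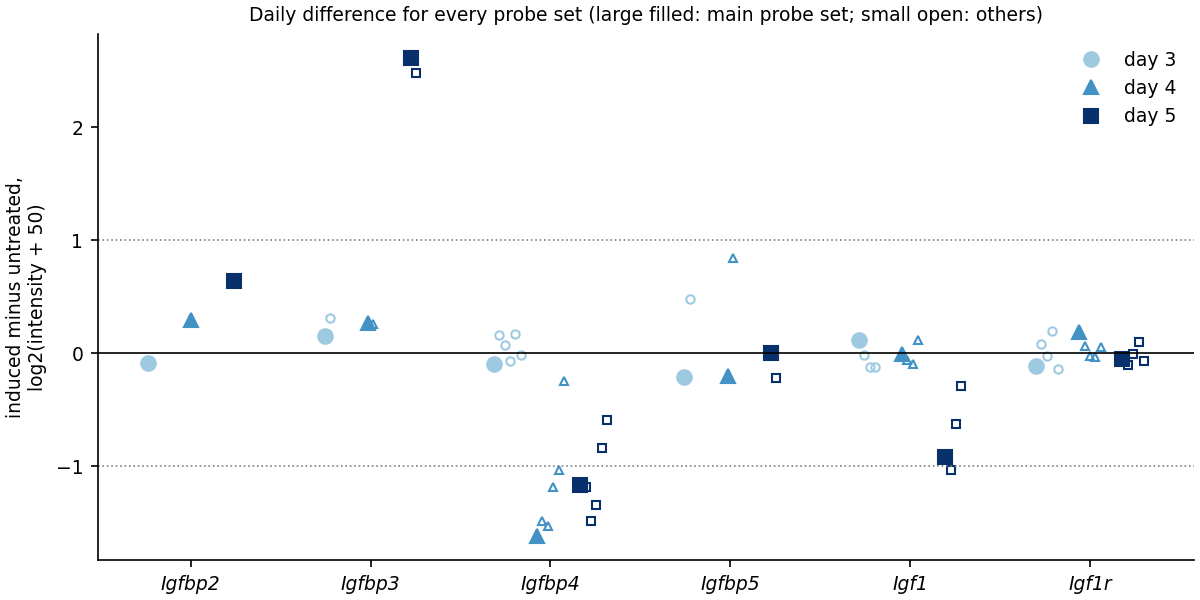
Induced minus untreated on the log2(intensity + 50) scale for all 20 probe sets of the 6 genes, by day, where large filled symbols are main probe sets and small open symbols the others. Dotted lines mark a 2-fold difference and each symbol rests on 2 arrays. Both Igfbp3 probe sets lie at 2.48 and 2.62 on day 5, all 6 Igfbp4 probe sets lie below 0 on days 4 and 5, and the pair for Igfbp5 lie on opposite sides of 0 on days 3 and 4.

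The promoter windows of Igfbp3 and Igfbp4 are shown because these were the members whose main probe set differed 2-fold with a pseudocount of 50. With a pseudocount of 16, Igf1 passed 2-fold too, at -1.33 on day 5. Each holds 300 bases around the annotated start, from RefSeq on GRCm38.p6, and is written 5′ to 3′ on the strand of the gene. The window of Igfbp3 is chr11:7213874-7214173 on the minus strand, and capitals mark CAGGTG, an E-box of the kind that Zeb and Snail repressors bind. The window of Igfbp4 is chr11:99040994-99041293 on the plus strand, and capitals mark TATAAA, the core promoter motif known as the TATA box.
Igfbp3: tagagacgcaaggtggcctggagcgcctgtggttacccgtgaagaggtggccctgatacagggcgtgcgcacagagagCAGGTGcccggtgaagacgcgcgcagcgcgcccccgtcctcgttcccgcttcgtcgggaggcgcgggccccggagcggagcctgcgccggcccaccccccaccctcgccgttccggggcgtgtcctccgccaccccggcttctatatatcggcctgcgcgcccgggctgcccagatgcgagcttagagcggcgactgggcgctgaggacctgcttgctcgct
Igfbp4: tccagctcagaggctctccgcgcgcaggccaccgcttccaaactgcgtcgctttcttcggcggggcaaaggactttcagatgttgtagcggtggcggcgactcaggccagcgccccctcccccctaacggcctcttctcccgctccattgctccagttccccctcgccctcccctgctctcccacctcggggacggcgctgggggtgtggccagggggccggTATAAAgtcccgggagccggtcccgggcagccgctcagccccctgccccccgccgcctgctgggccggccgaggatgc
The E-box lay 172 bases before the start of Igfbp3 and the TATA box 28 bases before the start of Igfbp4. Both strands of 32851 promoter windows of this length were searched, and the E-box letters were in 20.2% of them and the TATA box letters in 13.6%. The core of a GC box, GGGCGG, was in 35.7%. The Igfbp3 window held neither TATAAA nor GGGCGG, and the Igfbp4 window held neither CAGGTG nor GGGCGG. Only these exact letters were searched, so variants such as the tatatat in the Igfbp3 window were not counted. None of the motifs overlap in these windows. CpG pairs numbered 37 in the Igfbp3 window and 27 in that of Igfbp4, against a median of 7 over all windows. The single Igf1r window held 48, that of Igfbp5 10 and that of Igf1 6, and the Igfbp2 windows held 18 and 14. These matches describe the letters of the windows and no binding was measured here.

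Igfbp2 encodes a binding protein made widely in the embryo, and had a single probe set. Its intensity in untreated cultures was 2568, 2238 and 1467 on days 3, 4 and 5. In induced cultures it was 2424, 2762 and 2317. The untreated values were lower each day, while the induced values stayed within the range from 2317 to 2762. Induced minus untreated was -0.08, 0.30 and 0.64, with a mean of 0.29 ± 0.36 (SD, n = 3 days). Day 5 minus day 3 was -0.79 in untreated and -0.06 in induced cultures. The average of -0.43 (SE 0.17) had a limma adjusted p of 0.104. It was -0.70 without the induced day 3 array and -0.69 without the induced day 5 array. Without the untreated array of day 3 or of day 5 it was smaller, at -0.15 and -0.16. In each case 1 array is left on that day, assumed to vary like the others. The values were also known when the gene was chosen, so no p is given.

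Igfbp5, the most conserved of the binding proteins and one that also binds extracellular matrix, had probe sets that disagreed. The main one gave 188, 277 and 225 untreated and 157, 234 and 225 induced. It was slightly lower on the induced arrays of days 3 and 4 and level on day 5, with differences of -0.21, -0.20 and -0.00 and a mean of -0.14 ± 0.12 (SD, n = 3 days). The other gave 67.3, 27.5 and 292 untreated and 114, 89.4 and 243 induced, with differences of 0.48, 0.85 and -0.22. Between days 3 and 5 the main probe set moved by 0.31 (SE 0.10, limma adjusted p = 0.0693) and the other by 1.19 (SE 0.26, adjusted p = 0.022). No direction under induction is given for Igfbp5, since it turns with the probe set.

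Igf1 encodes the ligand through which growth hormone acts after birth. Its main probe set read 19.7, 25.2 and 105 untreated and 25.4, 24.8 and 32.0 induced. Only the untreated day 5 array was above the background of 36.7, and Igf1 passed the filter on low values through that array alone. Induced minus untreated was 0.11, -0.01 and -0.92, with a mean of -0.27 ± 0.56 (SD, n = 3 days). On day 5 the other 3 probe sets gave -1.03, -0.62 and -0.29. The first of them was at 75.4 on the untreated day 5 array and at 9.05 to 13.8 on the others, and the dimmest was below background on all 6.

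Day 5 minus day 3 of Igf1 was 1.15 in untreated cultures and 0.12 in induced cultures. The average of 0.64 (SE 0.28) did not pass (limma adjusted p = 0.129). Without the induced day 5 array it was 1.12, a value that rests on the single array through which Igf1 passed the filter. Without that untreated day 5 array it was 0.15. The summed fibroblast and mesenchyme markers above were also highest on the untreated day 5 array, a sum carried by Col1a1. Dcn was lowest there, at 3.77, and Thy1, Lum and Prrx1 were highest on induced arrays. The part of such cells in the Igf1 value was not tested.

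Igf1r encodes the receptor itself. Its main probe set gave 371, 490 and 571 untreated and 339, 567 and 548 induced. The treatments crossed between days, with differences of -0.12, 0.19 and -0.05 and a mean of 0.01 ± 0.16 (SD, n = 3 days). The 4 other probe sets stayed between -0.14 and 0.20 on every day. Igf1r rose from day 3 to day 5 by 0.56 untreated and 0.62 induced, on average by 0.59 (SE 0.11, limma adjusted p = 0.0139), a 1.51-fold rise. Of the other probe sets, 1 passed (0.32, adjusted p = 0.0477) and 3 did not (0.050, 0.35 and 0.059), 2 of which were at or below background on at least 3 arrays. The call was also lost without the untreated day 3 array (0.68) or the induced day 3 array (0.50), each of which leaves 1 array on that day.

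In the day 5 minus day 3 test, Igfbp4 and Igf1r were thus the 2 of 6 members that rose, none fell and 4 did not pass. Over all genes tested 39.9% passed, 20.6% higher and 19.2% lower. The members' share was near that background. In single treatments the change was at least 2-fold higher for 2 members in untreated cultures, Igfbp4 and Igf1, and for 2 in induced cultures, Igfbp4 and Igfbp3, where 5.93% and 4.67% of all genes were at least 2-fold higher. The filter fixes the direction for Igf1, which passed it only through the untreated day 5 array, so nothing is read from that count. These within-treatment changes rest on 2 arrays each and were not tested.

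**Figure D3:**
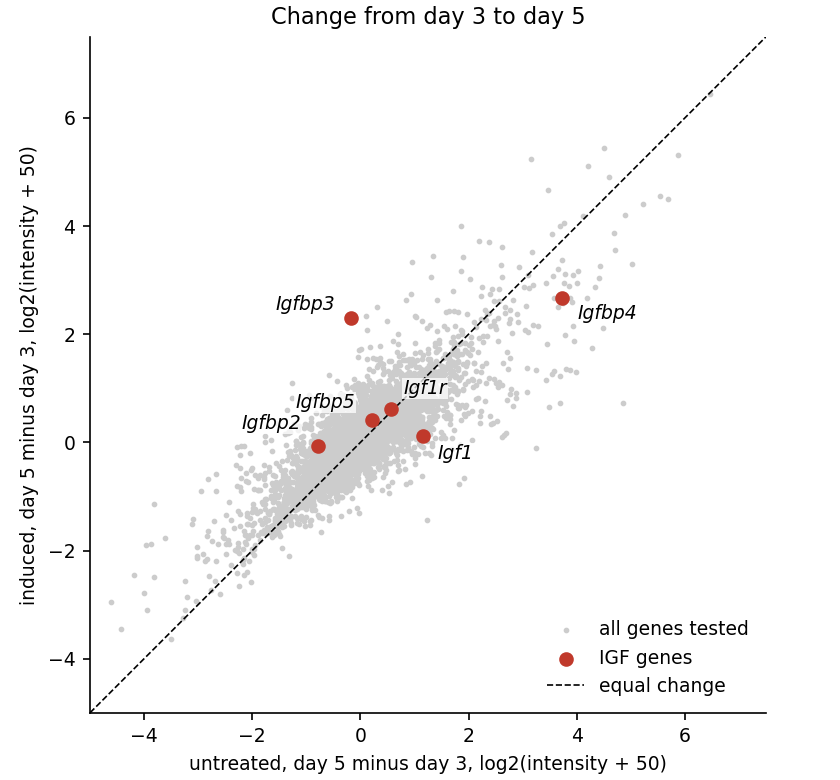
Day 5 minus day 3 on the log2(intensity + 50) scale in untreated cultures (x axis) and in induced cultures (y axis) for the 9997 genes tested in grey and the 6 IGF genes in red, with a dashed line of equal change. Igfbp4 lies far up on both axes at 3.74 and 2.67, Igf1r lies near the line at 0.56 and 0.62, and Igfbp3 lies at -0.17 and 2.30, far above the line.

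Over the 6 arrays, Pearson's r between members ranged from -0.95, for Igfbp2 and Igf1, to 0.81, for Igfbp4 and Igf1. Both ends involve Igf1, which was above background on a single array. Without Igf1 the range was from -0.85, for Igfbp2 and Igfbp4, to 0.78, for Igfbp5 and Igf1r. These values describe 6 arrays that share treatments and days. The genes whose log2 values were most like each member, among all tested, were Tbx3, Usp49 and Ap1m1 for Igfbp4 (r of 0.996 to 0.997), and Cirbp, Tdrd5 and 2610301B20Rik for Igfbp3 (0.990 to 0.992). Tbx3, a T-box transcription factor, read 44.1, 236 and 1240 untreated and 26.2, 51.4 and 609 induced, a likeness for which it was picked. They were Hcfc2, Ctla2b and Ss18l2 for Igf1 (0.996 to 0.998), Cspp1, Aasdhppt and Hsd17b11 for Igfbp2 (0.989 to 0.990), Zbtb17, Cilk1 and Aph1b for Igfbp5 (0.993 to 0.998), and Arih1, Tmem43 and Hs3st2 for Igf1r (0.990 to 0.996). Among 9997 genes and over 6 arrays, such values were found for all 6 members.

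Several members are chromosomal neighbours of a paralogue. Igfbp2 and Igfbp5 lie next to each other on chromosome 1, and their day 5 differences were 0.64 and -0.00. Igfbp3 lies beside Igfbp1 on chromosome 11, and Igfbp1 was at 2.99 to 12.6 on the 6 arrays, below background throughout. Of the other nearest neighbours, the ribosomal gene Rpl37a beside Igfbp2, Tns3 beside Igfbp3 and the topoisomerase gene Top2a beside Igfbp4 passed the filter on low values. Their day 5 differences were 0.03, 0.35 and -0.05. Of the rest, Tns4, Tnp1, Pmch, Synm and Pgpep1l did not pass it.

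The other IGF ligands and receptors included the largest time change among the pathway genes tested. Igf2, the growth-promoting ligand of the embryo, read 138, 404 and 8723 untreated and 125, 269 and 4053 induced. It rose by 5.05 from day 3 to day 5 (SE 0.24, limma adjusted p = 0.0014) and was lower under induction by -0.51 on day 4 and -1.10 on day 5, as Igfbp4 was. Igf2r, the receptor that clears Igf2, rose by 0.95 (SE 0.21, adjusted p = 0.0232), with 1185 untreated and 656 induced on day 5. Insr, the insulin receptor, rose by 0.62 (SE 0.11, adjusted p = 0.0112), with a day 5 difference of 0.10. Of the 6 genes listed, 3 were tested and all 3 rose, where 20.6% of all genes did. Insrr and Ins2 were below background on every array, and Ins1 was not analysed here.

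Of 13 other binding proteins and partners, 5 were tested and 1 rose, where 20.6% of all genes did. This was Adam9, a membrane metalloprotease able to cut IGF binding proteins, which rose by 0.99 (SE 0.25, limma adjusted p = 0.03) and read 412, 827 and 671 untreated and 432, 685 and 1178 induced. The secreted protease gene Htra1 (0.35), Stc1 (-0.29), Stc2 (-0.47) and Adamts1 (0.00) did not pass. Stc1 and Stc2 encode stanniocalcins, which block the proteases Pappa and Pappa2. Igfbp1, Igfbp7, Igfals, Pappa and Pappa2 were at or below background on all 6 arrays, so the protease known for cutting Igfbp4 was not above background here. Igfbp6, Igfbpl1 and Adam12 were above it on 2 to 4 arrays and did not pass the filter.

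Of 27 genes of insulin and IGF receptor signalling, 23 were tested, 6 rose from day 3 to day 5, 2 fell and 15 did not pass, beside the 20.6% and 19.2% of all genes that rose and fell. The genes that rose were the adaptor genes Irs1 and Grb10, the PI3 kinase regulatory subunit gene Pik3r3, the kinase gene Akt1, the phosphatase gene Ptpn11 and the transcription factor gene Foxo4. Irs4 and Foxo1 fell by 1.34 (adjusted p = 0.0389) and by 1.56 (adjusted p = 0.0064) in limma. The median day 5 difference under induction was -0.08 over the list and 0.02 over all genes tested. Of the 23 genes tested, 1 was 2-fold apart, where 1.97% of all genes were at least 2-fold higher and 1.52% lower, so nothing is read from this count. That gene was Irs4, a receptor substrate, with 375, 193 and 48.7 untreated and 398, 294 and 251 induced. The next highest day 5 differences were those of Foxo1 (0.82) and the adaptor gene Shc1 (0.57), and the lowest were those of Foxo4 (-0.89), the kinase gene Gsk3b (-0.32) and Akt2 (-0.26). Of the Igf2 mRNA binding proteins, Igf2bp3 rose by 0.47 (SE 0.10, adjusted p = 0.021) and Igf2bp1 moved by 0.11 without passing. Irs2 did not pass the filter on low values.

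**Figure D4:**
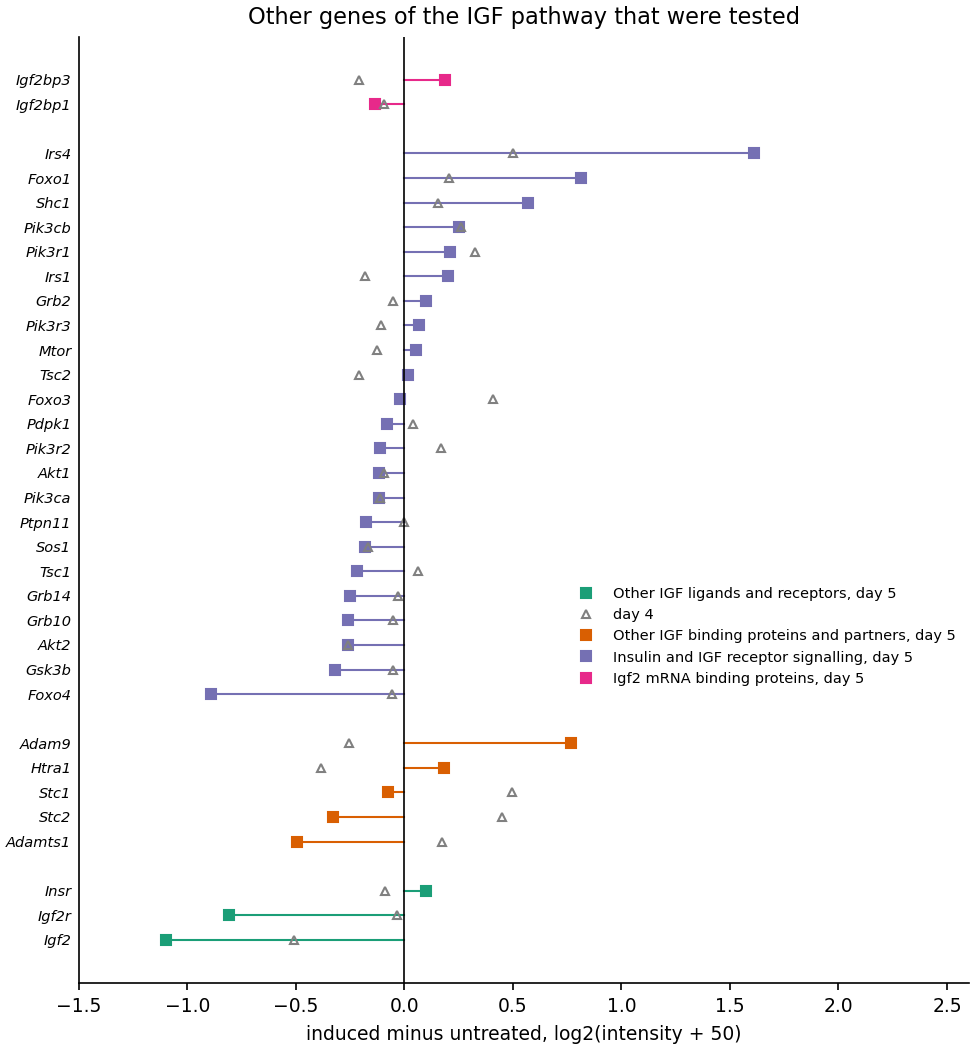
Induced minus untreated on the log2(intensity + 50) scale for the 33 other IGF pathway genes that were tested, in 4 lists by colour, with filled squares for day 5, open triangles for day 4 and 1 array per treatment and day. Most squares lie near 0, while Irs4 at 1.61 lies highest and Igf2 at -1.10 lowest.

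Across the 6 arrays median intensity lay between 34.5 and 36.9. Induced minus untreated over days 3 to 5 gave 0 genes past the limma threshold, with 842 at an unadjusted p under 0.05, and the test of treatment by linear day gave 0, with 1322. Hprt, a purine salvage gene, read 234, 125 and 102 untreated and 1671, 2539 and 2977 induced. Zeb2, a known target of miR-200c, read 43.7, 97.6 and 237 untreated and 24.8, 32.7 and 55.9 induced.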

How the data were processed

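RNA of A2.miR200c embryoid bodies was hybridised to 6 Affymetrix MOE430 2.0 arrays, 1 for each treatment on days 3, 4 and 5. The deposited values are linear intensities that the authors normalized and modelled in DNA-Chip Analyzer (dChip), and its version and settings are not given in the sources used here. No detection calls were used, and with so few arrays precision is limited.

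Of 45037 probe sets, 34945 carried 1 gene symbol in the platform annotation, 932 several and 9160 none, and only the first kind was used. Each gene was represented by its probe set of highest mean. Values were taken as log2(intensity + 50). The 9997 genes tested had a highest value of at least 80.1, the median over genes and arrays. Background, 36.7, is the 95th percentile over 78 genes of olfactory, taste, vomeronasal and trace amine receptors.

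Tests used limma 3.58.1 in R 4.3.3 (lmFit, eBayes with an intensity trend), with treatment and day as factors. They were two-sided and Benjamini-Hochberg adjusted at 0.05 over all genes tested. The fit of treatment and day had 2 residual and 3.05 prior degrees of freedom. The test of treatment by linear day adds a term, which leaves fewer residual degrees of freedom and less power. The scripts were tested on simulated data. Nothing states that the arrays came from separate cultures. With 1 array per treatment and day, p-values measure how far these arrays depart from an additive fit, not a spread between replicates. An induction difference that changes with day therefore enters the error and raises the SE of that gene.

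The members and lists were chosen with earlier results of these data known. Genes named were the 6 members, every tested gene of the ligand, binding protein and Igf2 mRNA binding protein lists, the 3 highest and 3 lowest of the signalling list on day 5, the 3 genes most like each member, and nearest neighbours. Those passing in the signalling list, single markers, Hprt and Zeb2 were named beyond that rule with their values known. Neighbours, promoters and microRNAs came from RefSeq tables on GRCm38.p6. Alternatives were other pseudocounts (16 and 100), quantile normalization, the mean of a gene's probe sets, no filter, no trend, leaving out arrays or days, and treatment by linear day. The other probe sets of each member were fitted as an alternative added with the values known.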

Additional observations from a re-analysis of the deposited data

Results flagged for a closer look

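Igfbp3 moved from day 3 to day 5 by 2.30 on the log2(intensity + 50) scale in induced cultures and by -0.17 in untreated cultures, opposite signs that rest on 2 arrays each, and the difference was not tested for the gene alone. Igf1 had an induced minus untreated difference of -0.92 on day 5 and of 0.11 on day 3, also not tested, and it was above background only on the untreated day 5 array. Adam9, the membrane metalloprotease, had an induced minus untreated difference of 0.77 on day 5 and of -0.25 on day 4, likewise not tested.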

How the results depend on the processing

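The day 5 minus day 3 difference of Igfbp4 stayed above 0 under all 18 alternatives, with log2 values of 0.94 to 3.85. Where all arrays were kept it passed, with limma adjusted p of 0.0037 to 0.0144. Its mean induced minus untreated difference stayed below 0 in all 21 alternatives, at -1.39 to -0.28. Leaving out 1 array at a time, the day 5 minus day 3 difference ran from -0.70 to -0.15 for Igfbp2, from -0.14 to 2.27 for Igfbp3, from 0.21 to 0.41 for Igfbp5, from 0.15 to 1.12 for Igf1 and from 0.50 to 0.68 for Igf1r. Igfbp3 turned to -0.14 without the induced day 5 array. Igfbp5 passed after quantile normalization (0.34, adjusted p = 0.0484), with the mean of its probe sets (0.75, adjusted p = 0.0141) and with its other probe set (1.19). Without the untreated day 5 array it was 0.41, with 1 array left on that day, so no p is given. Igf1r did not pass with 3 of its other probe sets (0.050, 0.35 and 0.059). The mean induced minus untreated difference of Igfbp5 moved to 0.12 with the mean of its probe sets and to 0.37 with the other probe set. The cause of these changes was not tested, beyond the fewer arrays or the other probes that each uses.

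The number of genes that passed for day 5 minus day 3, 3984, ran from 1362 to 4254 without single arrays and was 2454 without day 4, where fewer arrays enter the fit. It was lowest without the untreated day 3 array, then 1966 without the induced day 3 array, 2440 without the untreated day 4 array and 2454 without the induced day 4 array. The number that passed for induction, 0, ran from 0 to 2 without single arrays and was 2 without day 5, and was 145 with treatment by linear day in the fit, 103 of them higher. The labels give no replicate numbers to use as a block. The arrays pair by day, and day enters each fit. With 1 array a day, single-day differences cannot be told from array error.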
